A study of Homo sapiens with 9 samples.

Results

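The genes FOS, FOSB, FOSL1, JUN, JUNB, JUND, EGR1, IER2, IER3 and ATF3 were followed in 9 RNA-seq libraries of MCF10A cells and of lines transformed from them. These 10 genes were chosen by name, as members of the AP-1 family or as immediate early genes, among the 60199 gene symbols of the count table. All 10 passed the filter on low counts, which left 15717 genes for testing. MCF10A is an immortalized, non-malignant human mammary epithelial line with a deletion at CDKN2A, and all cultures of the study derive from it. The 3 CT cultures were MCF10A cells without supplement and not transformed. The 3 MC26 cultures came from unsorted MCF10A cells transformed by long exposure to the ligand BMP2 and the cytokine IL6. The 3 M1B26 cultures came from MCF10A cells sorted for the receptor BMPR1B and exposed to the same factors, from which 3 soft-agar clones were expanded. Whether each M1B26 library is 1 clone or a culture of their pool is not given in the sources used here, so the M1B26 spread and the p-values that use it may be between clones or between cultures. MC26 and M1B26 were still grown with BMP2 and IL6, and the base medium of MCF10A holds EGF, insulin and serum, which are themselves inducers of immediate early genes. The time between the last change of medium and the extraction of RNA is not given in the sources used here. Transformation, the continued presence of BMP2 and IL6, and any batch that followed the line therefore cannot be told apart. For M1B26, the BMPR1B sort, the clone expansion and the faster transformation reported in the paper cannot be told apart from these either. The question put to the data was how the level of each gene differed between CT, MC26 and M1B26.

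AP-1 is a dimeric transcription factor made of a FOS protein and a JUN protein, or of JUN proteins alone, which binds the TPA response element in DNA. FOS, FOSB, JUN, JUNB, EGR1, IER2 and IER3 are immediate early genes, transcribed within minutes of a growth factor or cytokine signal without new protein synthesis, through MAP kinases and the serum response factor SRF. FOSL1, which encodes FRA-1, is induced later and for longer by ERK signaling and is known for its high level in basal-like breast cancer cells, whereas JUND is present in most cells at a steadier level. JUNB is also a target of STAT3 and of SMAD factors, the effectors of IL6 and BMP signaling. EGR1 is a zinc finger factor, IER3 a regulator of cell survival, and ATF3 a stress-induced factor that can pair with JUN proteins.

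Parts of the promoters of EGR1 and JUND are shown because theirs were the only promoter windows searched for these genes that held a motif. A window from 250 bases before to 50 bases after the start was found in RefSeq (GRCh38.p14) for 8 of the 10 genes, in 9 windows, and FOSL1 and IER3 had no entry. Both strands were searched for 4 motifs. The TPA response element (TGANTCA) was present in 7.71% of all 35116 windows and the cAMP response element (TGACGTCA) in 1.85%. The CArG box bound by SRF was present in 1.29% and the STAT site (TTCNNNGAA) in 7.66%. The stretches below end upstream of the start, and capitals mark the matches.
EGR1, chr5:138465229-138465408, plus strand: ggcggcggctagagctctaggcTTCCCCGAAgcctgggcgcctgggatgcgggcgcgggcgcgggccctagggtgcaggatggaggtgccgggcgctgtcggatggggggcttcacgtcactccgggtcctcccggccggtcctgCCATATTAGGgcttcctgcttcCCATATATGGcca
JUND, chr19:18281773-18281872, minus strand: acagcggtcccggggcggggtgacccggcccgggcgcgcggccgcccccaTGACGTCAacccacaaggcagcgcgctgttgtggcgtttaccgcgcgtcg
EGR1 held a STAT site from -228 to -220 and 2 CArG boxes, from -105 to -96 and from -83 to -74, counted from the base before the start. JUND held a cAMP response element from -200 to -193. The windows of FOS, FOSB, JUN, JUNB, IER2 and ATF3 held none of the 4 motifs in these letters. Sequence outside the windows was not searched, so these promoters may hold such motifs farther upstream. Whether any factor was bound was not measured.

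Total counts per library ran from 21425118 in CT replicate 2 to 80076597 in CT replicate 3, and levels are given as counts scaled by TMM to a library of 1000000 (CPM). CT replicate 2 stood apart by its depth and by low values of genes rich in G and C. At the GC content of JUND (69.9%), JUNB (64.9%) and IER2 (63.3%), the trend over tested genes lay 0.51, 0.38 and 0.34 below the mean of the libraries on the log2 scale there. It was the lowest CT library for 9 of the 10 genes, all but FOSB. The cultures carried the epithelial markers, and the sum of the 5 basal markers was higher in MC26 (12712 to 16232 CPM) than in CT (7855 to 9925) or M1B26 (8518 to 9095). The rise over CT was mainly in KRT6A (mean 6211 CPM in MC26 against 1948) and KRT14 (1097 against 54.0). Of the 5, only KRT5 had a lower mean in MC26 than in CT (6262 against 6583 CPM), and M1B26 had less still (4922). The sum of the 4 general epithelial markers was lower in MC26 (681 to 715 CPM) than in CT (969 to 1111) or M1B26 (944 to 1012), with EPCAM at a mean of 14.8 CPM in MC26 against 70.4 in CT. Among them, CDH1 was lower in both transformed lines (means 40.7 CPM for MC26 and 44.1 for M1B26) than in CT (76.3). The sum of the 4 mature luminal markers was lower in M1B26 (13.5 to 14.8 CPM) and MC26 (16.6 to 19.5) than in CT (19.6 to 24.5). GATA3 accounted for most of this fall, with a mean of 7.51 CPM for M1B26 and 12.5 for MC26 against 16.9. The mean of FOXA1 was higher for M1B26 (6.15 CPM) than for CT (5.56), with MC26 at 5.37. ESR1 was low, with a higher mean for M1B26 (0.409 CPM) and MC26 (0.208) than for CT (0.0963). Of 5 leukocyte markers, CD14 made up most of a sum of 33.8 to 47.9 CPM in M1B26 against 6.90 to 11.1 in CT, whereas PTPRC, CD3E, PGR, CDH5, VWF and COL1A2 had 3 counts or fewer in every library. Other markers of these cell types were detected, with the endothelial PECAM1 at a mean of 5.04 CPM for CT, 0.268 for MC26 and 0.897 for M1B26, and the fibroblast genes COL1A1 and DCN at 6.72 to 17.5 and 5.44 to 47.3 CPM. The 5 fibroblast markers summed to 37.2 to 37.6 CPM in CT, 17.1 to 56.5 in MC26 and 23.8 to 33.7 in M1B26. The part of these differences in the results below was not tested. In bulk RNA a smaller number of cells that express a gene and less RNA per cell cannot be told apart.

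In MC26, 5 of the 10 genes were higher than in CT (FOSL1, JUN, JUNB, IER2 and ATF3) and 1 was lower (EGR1). The largest differences were those of JUNB, 3.18-fold higher, and FOSL1, 2.99-fold higher. These 6 calls at an adjusted p under 0.05 stand beside 38.7% of all tested genes (18.8% higher and 19.9% lower), and with total counts in place of TMM scaling the share of higher genes among all calls fell from 48.5% to 35.8%. The median log2 fold change was 0.36 over the 10 genes and 0.00 over all tested genes. Libraries of the 2 lines did not overlap for 4 of the 10 genes, against 50.3% of tested genes.

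In M1B26, 6 genes were higher than in CT (FOS, FOSL1, JUNB, IER2, IER3 and ATF3) and EGR1 was again lower. JUNB was 2.78-fold higher, IER2 2.11-fold higher and FOSL1 1.999-fold higher. These 7 calls stand beside 48.9% of all tested genes (25.2% higher and 23.7% lower). With total counts the share of higher genes among all calls fell from 51.5% to 39.6%. The median log2 fold change of the 10 genes was 0.52, and libraries did not overlap for 7 of them against 59.0% of tested genes. Both contrasts share the CT libraries.

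Between the transformed lines, FOS and IER3 were higher in M1B26, and FOSL1 and JUN were lower. FOS was 1.99-fold higher and JUN 1.99-fold lower in M1B26 than in MC26, and none of the 4 called genes reached 2-fold. The 4 calls are a share close to the 39.5% of all tested genes called (21.2% higher and 18.4% lower), and the median of the 10 genes was 0.12 on the log2 scale. Libraries did not overlap for 6 genes against 53.5% of tested genes. Without M1B26 replicate 1, 2 of the 10 genes were called, since FOSL1 and IER3 lost their calls.

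**Figure D1:**
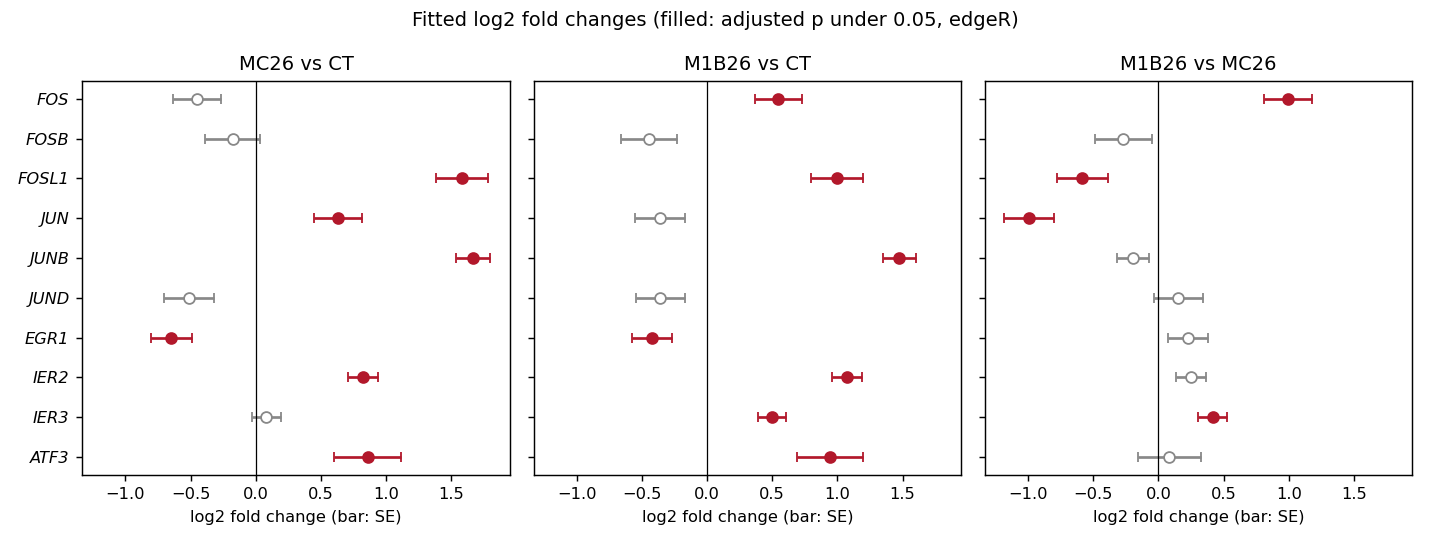
Log2 fold changes of the 10 genes in the 3 comparisons, with bars of 1 SE from the edgeR fit and filled points for an adjusted p under 0.05. JUNB and FOSL1 lay farthest above 0 in MC26 against CT at 1.67 and 1.58, and FOS and JUN lay on opposite sides of 0 in M1B26 against MC26 at 0.99 and -0.99.

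FOSL1 (11:65892049-65900573 on GRCh38, minus strand) was the FOS family gene that differed most from CT. Its CPM were 46.1, 35.7 and 53.7 in CT, 183, 128 and 97.2 in MC26, and 95.8, 91.4 and 85.2 in M1B26. Every transformed library was above every CT library, and all MC26 libraries were above all M1B26 libraries, although MC26 replicate 3 was close to them. MC26 exceeded CT by 1.58 ± 0.20 on the log2 scale (SE; adjusted p = 0.000156) and M1B26 exceeded CT by 0.999 ± 0.20 (adjusted p = 0.0019), by the quasi-likelihood test of edgeR, as in all tests of single genes that follow. Both calls held without any 1 of the 9 libraries. The difference between M1B26 and MC26 was -0.58 ± 0.20 (adjusted p = 0.0365). It lost its call with DESeq2 (adjusted p = 0.055) and without MC26 replicate 1 (0.158), MC26 replicate 2 (0.0679), M1B26 replicate 1 (0.0716), M1B26 replicate 2 (0.0934) or M1B26 replicate 3 (0.105).

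FOS (14:75278826-75282230), the founding member of the family and a transiently induced gene, did not follow FOSL1. Its CPM were 29.4, 24.3 and 25.2 in CT, 14.3, 17.3 and 26.4 in MC26, and 37.0, 35.5 and 43.0 in M1B26. All M1B26 libraries were above all others, whereas MC26 replicates 1 and 2 lay below CT and replicate 3 lay inside its range. M1B26 exceeded MC26 by 0.99 ± 0.18 on the log2 scale (adjusted p = 0.00173), a call kept without any 1 library. M1B26 exceeded CT by 0.55 ± 0.18 (adjusted p = 0.027), but the call was lost with total counts (0.0564), with an offset for GC content (0.0509), and without CT replicate 2 (0.0782), CT replicate 3 (0.0749), M1B26 replicate 1 (0.0517) or M1B26 replicate 3 (0.0902). MC26 against CT gave -0.45 ± 0.18 (adjusted p = 0.076), which was called without MC26 replicate 3 (-0.74, adjusted p = 0.000948). It was also called with 6 of the 10 other settings.

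FOSB (19:45467995-45475179) was low throughout. Its CPM were 1.60, 1.53 and 1.21 in CT, 1.22, 1.12 and 1.46 in MC26, and 1.31, 0.994 and 0.868 in M1B26, from 35 to 112 counts per library. The lines overlapped in all 3 comparisons. Against CT, MC26 gave -0.18 ± 0.21 on the log2 scale (adjusted p = 0.546) and M1B26 gave -0.45 ± 0.21 (adjusted p = 0.107, and 0.0498 without M1B26 replicate 1). FOSB overlaps ERCC1, a DNA repair gene on the other strand with 31989 counts over all libraries against 547 for FOSB. Whether the counting used strand is not given in the sources used here, so the FOSB values are uncertain.

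JUNB (19:12791486-12793315, a gene of 1 exon), a JUN protein known to restrain JUN as well as to act on its own targets, was the gene with the largest difference from CT in both lines. Its CPM were 51.5, 36.5 and 57.5 in CT, 150.1, 155 and 161 in MC26, and 132, 139.6 and 136 in M1B26. The 3 lines did not overlap in any comparison, with MC26 highest and CT lowest. MC26 was 1.67 ± 0.13 above CT on the log2 scale (adjusted p = 4.69e-06) and M1B26 was 1.48 ± 0.13 above it (adjusted p = 7.17e-06), and both calls held without any 1 library and with all 10 other settings. The differences were smaller without CT replicate 2 (1.52 for MC26 and 1.31 for M1B26) and with the GC offset (1.61 and 1.34). M1B26 was 0.19 ± 0.13 below MC26 on the log2 scale (adjusted p = 0.241). The difference between M1B26 and MC26 was called with the GC offset (0.00198), with only the 6 libraries compared (0.0194) and without CT replicate 2 (0.018). JUNB overlaps HOOK2 on the other strand, which had 9129 counts over all libraries against 47097 for JUNB.

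JUN (1:58776845-58784048), a strong activator among the JUN proteins and a substrate of the JNK kinases, separated the transformed lines from each other. Its CPM were 30.6, 26.2 and 36.9 in CT, 61.1, 50.5 and 34.5 in MC26, and 24.3, 27.5 and 21.5 in M1B26. MC26 replicates 1 and 2 were above all CT libraries and MC26 replicate 3 lay among them, while the M1B26 libraries were all below the MC26 libraries and overlapped CT. M1B26 was 0.99 ± 0.19 below MC26 on the log2 scale (adjusted p = 0.00206), a call kept without any 1 library. MC26 was 0.63 ± 0.19 above CT (adjusted p = 0.0207). This call was lost without CT replicate 1 (0.063), CT replicate 2 (0.069), MC26 replicate 1 (0.0885) or MC26 replicate 2 (0.0596). M1B26 against CT gave -0.36 ± 0.19 (adjusted p = 0.136), which was called without MC26 replicate 3 (0.042) and with only the 6 libraries compared (0.0369).

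JUND (19:18279694-18281622) had CPM of 52.55, 33.7 and 61.95 in CT, 28.4, 35.2 and 41.0 in MC26, and 35.6, 40.2 and 40.5 in M1B26. CT replicates 1 and 3 were above all transformed libraries, and CT replicate 2 lay among them. Against CT, neither MC26 (-0.51 ± 0.19 on the log2 scale, adjusted p = 0.052) nor M1B26 (-0.36 ± 0.19, adjusted p = 0.136) passed the test. Without CT replicate 2 both were called, at -0.71 (adjusted p = 0.00348) and -0.57 (adjusted p = 0.00745), and with the GC offset the adjusted p were 0.0015 and 0.00144. MC26 against CT was also called without MC26 replicate 3 (0.0279) and with 7 of the 10 other settings, among them DESeq2 (0.0215) and total counts (0.025). The difference between M1B26 and MC26 was 0.15 ± 0.19 (adjusted p = 0.552). JUND has the highest GC content of the 10 genes, and the part of the GC trend of CT replicate 2 in these values was not tested beyond these fits.

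**Figure D2:**
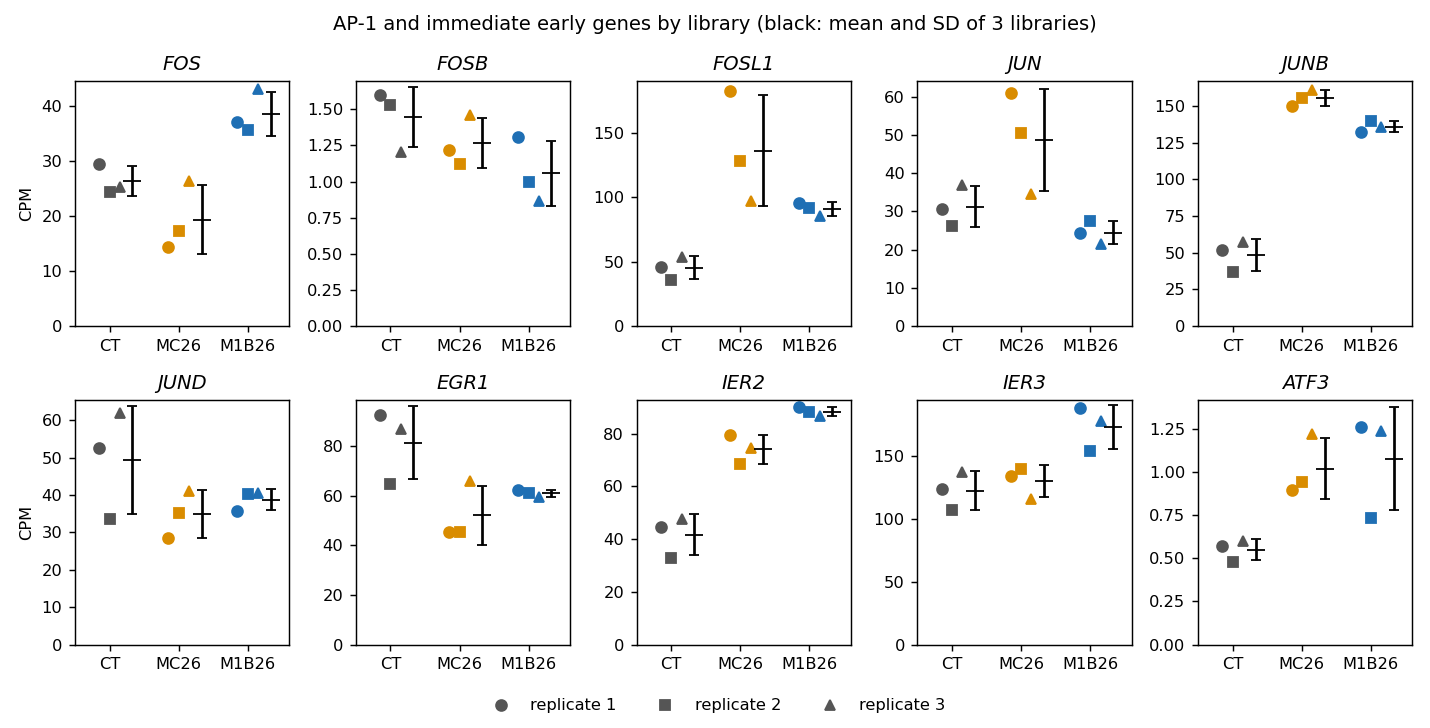
CPM of each of the 10 genes (y axis, from 0) in the 9 libraries, with 1 point per library, its shape giving the replicate, and a black mark and bar for the mean and SD of each line (n = 3). JUNB lay at 36.5 to 57.5 in CT and at 132 or more in all transformed libraries, and FOS was highest in the M1B26 libraries at 35.5 to 43.0.

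To compare genes with each other, levels were divided by exonic length (CPM per kb), and each gene was expressed as a share of its family. FOSL2, which encodes FRA-2, completed the FOS family and had CPM of 156, 140.5 and 150.4 in CT, 135, 141 and 148 in MC26, and 108, 113 and 158 in M1B26. FOSL2 was not called in any comparison (M1B26 against CT -0.24 ± 0.12, adjusted p = 0.127), although without M1B26 replicate 3 it was lower than in CT (0.00154) and than in MC26 (0.00722). In CT (n = 3), FOSL1 made up 44.6% ± 4.42 (SD) of the FOS family, against 72.4% ± 8.30 for MC26 and 61.8% ± 5.13 for M1B26. FOSL2 held 39.3%, 20.8% and 22.5% in the order CT, MC26, M1B26, and FOS held 15.6%, 6.60% and 15.5%. FOSB stayed under 0.6% in every library. The difference in the FOSL1 share against CT was 27.8 percentage points in MC26 and 17.1 in M1B26, each with p = 0.1 in a 2-sided exact permutation test, the smallest value that 3 libraries against 3 allow. With FOSL2 left out of the sum these differences were 17.7 points (exact permutation p = 0.1) and 6.23 points (exact permutation p = 0.2), so the size in M1B26 rests on FOSL2 being counted. M1B26 minus MC26 was -10.6 points with overlapping libraries (exact permutation p = 0.3), -6.59 without MC26 replicate 1, and -11.5 without FOSL2 in the sum (exact permutation p = 0.1).

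In the JUN family the main share passed from a near balance of JUNB and JUND to JUNB. In CT (n = 3), JUNB made up 43.8% ± 1.07 (SD) of the family, against 72.9% ± 0.987 for MC26 and 73.4% ± 0.646 for M1B26, and JUND made up 41.8%, 15.5% and 19.9%. JUN made up 14.4% ± 1.55, 11.6% ± 3.42 and 6.67% ± 0.712 in the same order. Its share in M1B26 was below every CT and MC26 library, with mean differences of -7.72 and -4.91 points (each exact permutation p = 0.1), whereas MC26 and CT overlapped (-2.82 points, exact permutation p = 0.3). The size of these differences depended on the sum. With JUND left out, the share of JUN differed from CT by -11.1 points in MC26 and -16.4 in M1B26 (each exact permutation p = 0.1), and without division by length M1B26 differed by -12.2 points from CT and -8.06 from MC26. Leaving out MC26 replicate 3 brought the MC26 difference to -1.04 points, and leaving out MC26 replicate 1 to -4.44. The FOS family summed to 53.3 ± 5.99 CPM per kb in CT (SD, n = 3), against 98.1 ± 20.3 for MC26 and 78.0 ± 2.65 for M1B26. For the JUN family the sums were 60.7 ± 14.8, 116 ± 2.56 and 101 ± 3.66 CPM per kb. For both families every transformed library was above every CT library.

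**Figure D3:**
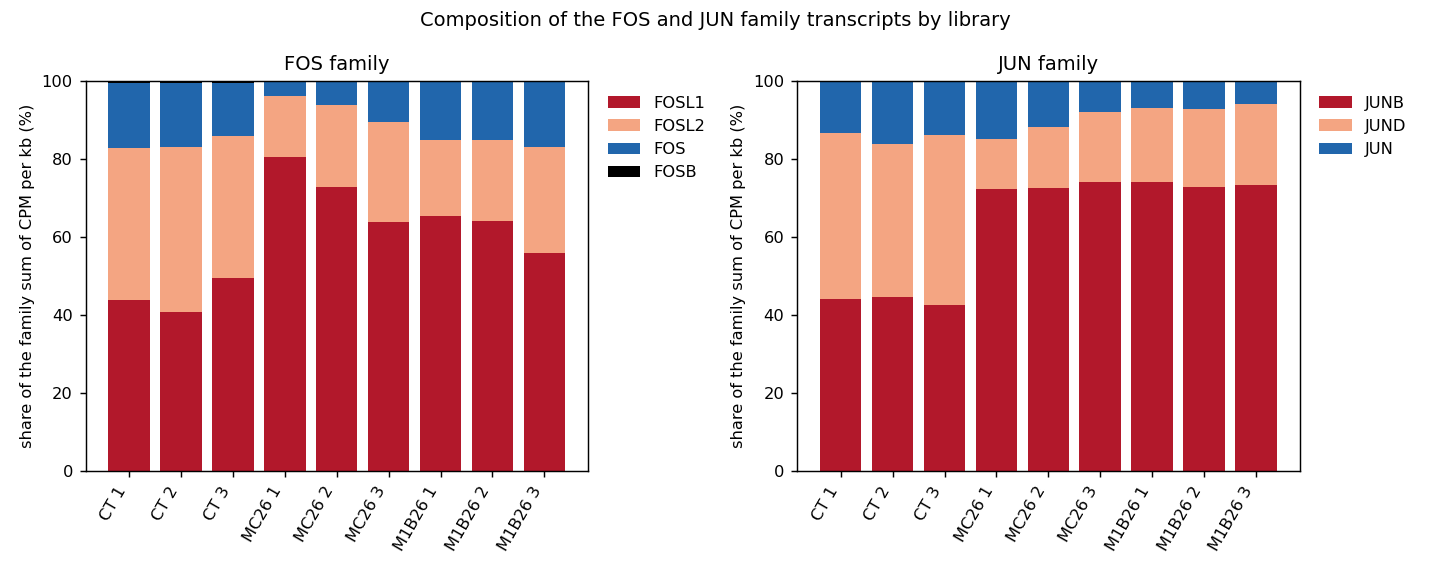
Share of each gene in the summed CPM per kb of the FOS family (with FOSL2) and of the JUN family, 1 stacked bar per library from 0 to 100%. FOSL1 and JUNB took larger shares in all 6 transformed libraries than in the 3 CT libraries, and JUN took its smallest shares, 5.88% to 7.25%, in M1B26.

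EGR1 (5:138465479-138469303), whose promoter carries the CArG boxes printed above, was lower in both transformed lines. Its CPM were 92.5, 64.7 and 86.7 in CT, 45.1, 45.4 and 65.7 in MC26, and 62.3, 61.3 and 59.4 in M1B26. M1B26 lay wholly below CT, with CT replicate 2 close to it, and MC26 replicate 3 overlapped CT replicate 2. MC26 against CT gave -0.65 ± 0.15 on the log2 scale (adjusted p = 0.00704), a call that held without any 1 library. In M1B26 it was -0.42 ± 0.15 (adjusted p = 0.0408), and the call was lost without CT replicate 1 (0.151), CT replicate 3 (0.106), M1B26 replicate 1 (0.0898), M1B26 replicate 2 (0.0994) or M1B26 replicate 3 (0.103). M1B26 against MC26 gave 0.23 ± 0.15 (adjusted p = 0.267, and 0.0217 without MC26 replicate 3).

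IER2 (19:13150411-13154911), a nuclear protein of the early response, rose in both lines. Its CPM were 44.6, 32.7 and 47.6 in CT, 79.4, 68.4 and 74.5 in MC26, and 90.05, 88.2 and 86.7 in M1B26. The 3 lines did not overlap, with CT lowest and M1B26 highest and least spread. The increase over CT was 0.82 ± 0.12 on the log2 scale for MC26 (adjusted p = 0.000315) and 1.07 ± 0.12 for M1B26 (adjusted p = 3.24e-05), both kept without any 1 library and with all 10 other settings. The increases were smaller without CT replicate 2 (0.69 for MC26 and 0.93 for M1B26) and with the GC offset (0.76 and 0.95). M1B26 exceeded MC26 by 0.25 ± 0.11 (adjusted p = 0.102), a difference called with the GC offset (0.0179), without a filter (0.0332), with only the 6 libraries compared (0.0158) and without CT replicate 2 (0.0109).

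IER3 (6:30743199-30744548), which modulates ERK and NF-kB signaling, rose only in the M1B26 comparisons among the 3 tested. Its CPM were 124, 107 and 138 in CT, 135, 140.0 and 116 in MC26, and 188, 154 and 178 in M1B26. CT and MC26 overlapped, and all M1B26 libraries were above both. M1B26 exceeded CT by 0.50 ± 0.11 on the log2 scale (adjusted p = 0.00312) and MC26 by 0.42 ± 0.11 (adjusted p = 0.0113, and 0.0502 without M1B26 replicate 1). MC26 against CT gave 0.08 ± 0.11 (adjusted p = 0.579). Counts of the antisense gene IER3-AS1 on the other strand were at most 7 in a library.

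ATF3 (1:212565334-212620777) was the lowest of the genes per length in CT, with 11 to 67 counts per library. Its CPM were 0.571, 0.480 and 0.598 in CT, 0.895, 0.941 and 1.22 in MC26, and 1.26, 0.733 and 1.24 in M1B26. All transformed libraries were above all CT libraries, and MC26 and M1B26 overlapped. Over CT, the increase was 0.86 ± 0.26 on the log2 scale for MC26 (adjusted p = 0.0219, and 0.0624 without CT replicate 1 or 0.0745 without MC26 replicate 3) and 0.94 ± 0.25 for M1B26 (adjusted p = 0.0101). M1B26 against MC26 gave 0.08 ± 0.24 (adjusted p = 0.81). The gene was left out by the stricter filter of a mean of at least 50 counts.

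The order of the levels per length changed between the lines. The length was that of all annotated exons of a gene, 3186 bases for FOS and 3624 for JUN. Their canonical transcripts have 2104 and 3257 bases, and the order with canonical lengths was not tested. In CT, IER3 was highest at 90.9 ± 11.4 CPM per kb (SD, n = 3), followed by JUNB (26.5 ± 5.90), EGR1 (25.9 ± 4.67), JUND (25.6 ± 7.46) and FOSL1 (23.9 ± 4.796), which did not differ beyond their spread. IER2 (13.5 ± 2.55) came next, then JUN (8.61 ± 1.49) and FOS (8.26 ± 0.862), which overlapped, and FOSB and ATF3 were under 0.3 CPM per kb. In MC26 the levels of IER3 (96.5 ± 9.32), JUNB (84.9 ± 2.89) and FOSL1 (72.1 ± 22.9) overlapped at the top. IER2 (24.1 ± 1.78) followed, then JUND (18.1 ± 3.27), EGR1 (16.6 ± 3.76) and JUN (13.4 ± 3.70), which were within their spread, and FOS (6.06 ± 1.97). In M1B26 the first places were apart, with IER3 at 129 ± 12.9, JUNB at 74.2 ± 2.05, FOSL1 at 48.1 ± 2.82 and IER2 at 28.7 ± 0.538 CPM per kb. JUND (20.1 ± 1.42) and EGR1 (19.4 ± 0.475) did not differ beyond their spread, and FOS (12.1 ± 1.24) stood above JUN (6.75 ± 0.824).

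The genes also varied among cultures of 1 line. The ratio of the highest to the lowest library had a median of 1.42 over the 10 genes in CT, 1.41 in MC26 and 1.17 in M1B26. For the 10635 genes averaging 5 CPM or more, these medians were 1.16, 1.13 and 1.11. FOSB and ATF3 lie under that level but count in the medians of the 10 genes. Their ratios were 1.51 and 1.72 in M1B26 and 1.24 to 1.37 in the other lines. In CT the lowest library was replicate 2 for all of the 10 genes but FOSB. The part of low counts and of CT replicate 2 in these medians was not tested. In MC26 the direction differed by gene. FOSL1 and JUN were highest in MC26 replicate 1 and lowest in replicate 3, by 1.88-fold and 1.77-fold, whereas FOS, EGR1 and JUND were highest in replicate 3 and lowest in replicate 1, by 1.84-fold, 1.46-fold and 1.44-fold. JUNB differed by only 1.07-fold among the same libraries.

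**Figure D4:**
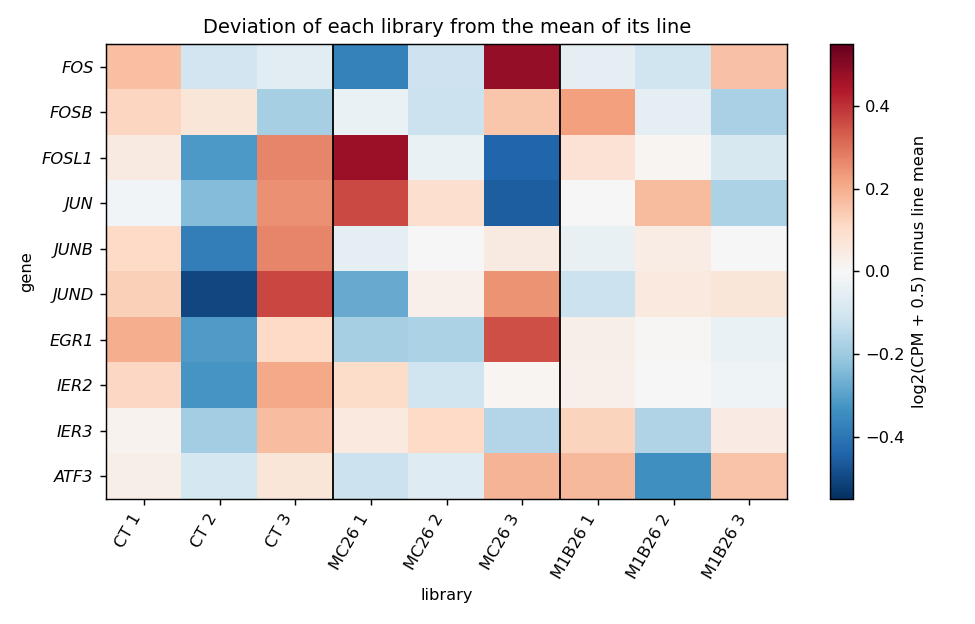
Deviation of each library from the mean of its line (log2 CPM with a pseudocount of 0.5) for the 10 genes, as colours from blue (below) to red (above), with 1 row per gene and 1 column per library. FOSL1 and FOS deviated in opposite directions in MC26 replicate 1, at 0.47 and -0.37, and in MC26 replicate 3, at -0.44 and 0.48.

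Among 10627 genes, those with the pattern most like each gene were named by Pearson's r of log2 CPM (pseudocount 0.5) over the 9 libraries, which share their lines and therefore hold few independent points. For FOSL1 they were GNB5 (r = 0.997), CD2BP2 (0.993) and SHB (0.992). For JUNB they were RTEL1-TNFRSF6B (0.991), RAC2 (0.989) and ID1 (0.989), the last a known target of BMP signaling. For FOS they were HDAC5 (0.987), EIF3L (0.977) and FGFBP1 (0.975), and for JUN ATAD3B (0.980), TUBA4A (0.973) and XPO6 (0.973). For IER2 they were C16orf74 (0.994), HGS (0.994) and S100A16 (0.994), and for EGR1 PACS2 (0.977), COQ8A (0.975) and MAST3 (0.974).

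Of the other AP-1 family genes, 10 of 12 were tested, and 3 were called in MC26, or 30.0% against 38.7% of all tested genes. There 2 were higher, MAFG (0.60 ± 0.15, adjusted p = 0.00829) and BATF3, and 1 was lower, JDP2 (-0.67 ± 0.15, adjusted p = 0.00519), a repressor that pairs with JUN proteins. In M1B26 against CT, 3 were higher (MAFG, BATF3 and BATF2) and 3 lower, among them JDP2 and ATF7, so 6 of 10 were called beside 48.9% of all tested genes. BATF2 was higher in M1B26 than in MC26, at 1.37 against 0.315 CPM, and ATF7 was lower. BATF3 and BATF2 were named after their values were seen. MAFG lies on chromosome 17, where 843 tested genes had a median log2 fold change of 0.48 in M1B26 against CT and 0.00 in MC26 against CT.

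Of 26 other immediate early genes listed, 23 were tested, and EGR2, GEM and NR4A3 were not. Of the 23, 7 were higher and 5 lower in MC26, 6 higher and 6 lower in M1B26 against CT, and 5 and 5 in M1B26 against MC26. These are 52.2%, 52.2% and 43.5% of the list, against 38.7%, 48.9% and 39.5% of all tested genes. The EGR1 relative EGR3 and the nuclear receptors NR4A1 and NR4A2 were among the genes lower in MC26 (named after their values were seen). EGR3 and NR4A2 were also lower in M1B26 than in CT, at 0.0369 against 0.372 CPM and at 1.79 against 3.10 CPM. EGR3 was near the floor in both transformed lines. It passed the filter on low counts only through the CT libraries, which fixed its direction against CT. SGK1 was higher in both lines, by 0.95 ± 0.12 and 0.86 ± 0.12 on the log2 scale. KLF4 was higher in MC26 (0.99 ± 0.22, adjusted p = 0.00456), and M1B26 fell short of that level (-0.75 ± 0.22, adjusted p = 0.0177). The second call was lost without MC26 replicate 1 (0.0748), MC26 replicate 2 (0.057), M1B26 replicate 2 (0.0656) or M1B26 replicate 3 (0.0609). RHOB, like FOS, was highest in M1B26, by 1.30 ± 0.16 over CT (adjusted p = 7.73e-05) and 1.72 ± 0.16 over MC26 (adjusted p = 2.95e-05). CCN1, a secreted matrix protein, was lower in M1B26 than in CT (-1.05 ± 0.15, adjusted p = 0.000169) and than in MC26 (-0.69 ± 0.15).

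Among 23 kinases and factors upstream of these genes, 7 were higher and 3 lower in MC26, 5 higher and 5 lower in M1B26 against CT, and 2 higher and 5 lower in M1B26 against MC26. These are 43.5%, 43.5% and 30.4% of the list, against 38.7%, 48.9% and 39.5% of all tested genes. HRAS (0.69 ± 0.09 and 0.68 ± 0.09) and MAP2K1, which encodes the ERK kinase MEK1 (0.51 ± 0.08 and 0.36 ± 0.08), were higher in both lines. SRF was higher in MC26 than in CT (0.35 ± 0.10, adjusted p = 0.0178), and M1B26 lay under MC26 (-0.37 ± 0.10, adjusted p = 0.0142, and 0.0606 without M1B26 replicate 3). MAPK3, which encodes ERK1, was higher in M1B26 than in MC26 (0.60 ± 0.12, adjusted p = 0.00219).

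Listed AP-1 target genes were mostly higher than in CT where they were called. Of 22 listed, 17 were tested, and MMP1, MMP9, MMP10, MMP13 and SPRR3 were not among the genes left by the filter on low counts. Of the 17, 11 were higher and 1, IL6, lower in MC26, and 8 were higher and IL6 lower in M1B26. The called genes are 70.6% of the list in MC26 and 52.9% in M1B26, against 38.7% and 48.9% of all tested genes. The median log2 fold change was 0.77 in MC26 and 0.56 in M1B26. Between the transformed lines, 2 were higher in M1B26 (CXCL8 and AREG) and 7 lower (52.9% of the list against 39.5% of all tested genes), and the median of the list was -0.20. CXCL8 was 2.56 ± 0.17 higher in M1B26 than in CT (adjusted p = 1.16e-06) and 0.77 ± 0.17 higher in MC26 (adjusted p = 0.00502). IL6, itself a factor in the medium of both lines, had 1.81 CPM in CT against 0.0919 in MC26 and 0.106 in M1B26 (named after its values were seen). MMP3 had 0 counts in all CT libraries and 0.0784 to 0.425 CPM in the transformed ones (also named after its values were seen). Against a floor of 3 counts over the CT group, it was at least 10.6-fold higher in MC26 and at least 18.98-fold higher in M1B26. The medians were the same with these bounds, since MMP3 lay above them either way. MMP3 could pass the filter on low counts only through transformed libraries, and IL6 only through CT libraries. The filter thus fixed their directions against CT, and both stand in the counts above.

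**Figure D5:**
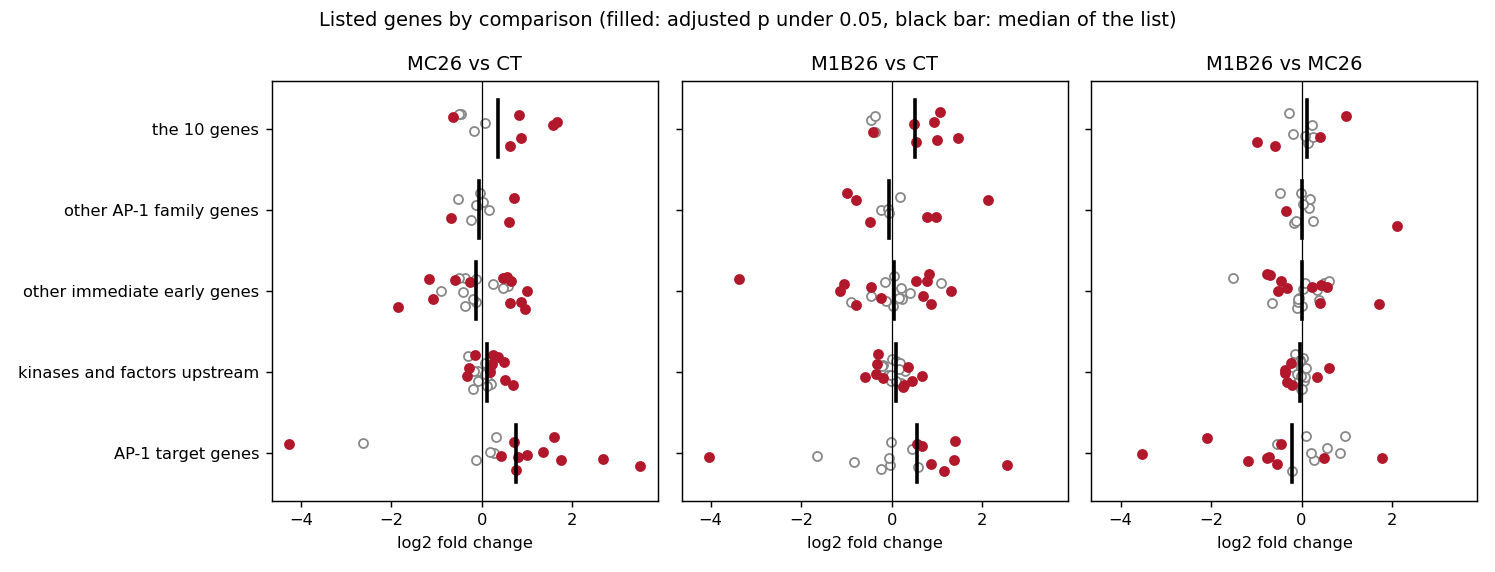
Log2 fold change (x axis) of each tested gene of the 10 genes and of the 4 related lists in the 3 comparisons, with filled points for an adjusted p under 0.05 and a black bar at the median of the list. MMP3 is not drawn against CT, where its counts were 0. The AP-1 targets had 11 higher and 1 lower of 17 in MC26 against CT and 2 higher and 7 lower in M1B26 against MC26.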

How the data were processed

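RNA of 9 cultures (3 each of CT, MC26 and M1B26, 1 per sample title) was sequenced as poly-A libraries. The authors deposited raw counts per gene symbol. Their processing notes name GRCh38, STAR 2.7.3a and Salmon 1.1.0, whereas the counting program, its strandedness and its handling of reads with several alignments are not given in the sources used here. The tests were run with edgeR 4.0.16 under R 4.3.3. After filterByExpr with a minimum count of 10, libraries were scaled by TMM (factors 0.968 to 1.07), and 1 quasi-likelihood model of the 3 lines was fitted to all 9 libraries. A gene was called at an adjusted p (Benjamini-Hochberg, 2-sided) under 0.05. The SE is the absolute log2 fold change divided by the square root of F. CPM used library sizes multiplied by TMM factors. The design names independent cultures, so p-values measure the spread between the libraries of a line, and what separates the M1B26 cultures is not given in the sources used here. Lengths, positions and GC content came from GENCODE v44, whose GC values covered 88.0% of tested genes. Shares were compared by 2-sided exact permutation tests (Python 3.11.15, scipy 1.17.1).

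The 10 genes and the lists of related genes were chosen with earlier results of these data known. Besides the 10 genes, each list was described by its counts, and genes were named from the 2 at the top and the 2 at the bottom by log2 fold change in each comparison, among called genes averaging 5 CPM or more. Some genes that this rule names are not reported here. Alternatives were DESeq2 1.42.0, RLE size factors, total counts, a filter of none or of a mean of 50 counts, only the 6 libraries compared, a replicate block, family sums without FOSL2 or JUND or without division by length, an adjusted p under 0.01, and leaving out each library. An offset for GC content (lowess span 0.3), the same with the block, and canonical transcript lengths were chosen later, after seeing the data. The code of the fit was tested on simulated data with known fold changes and the same spread for all genes. The simulation held no GC trend and no deviating library, so it does not bear on these features of the data.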

Additional observations from a re-analysis of the deposited data

Results flagged for a closer look

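In 4 of the 10 genes the level differed between the transformed lines, by the direct test of M1B26 against MC26. This is 40.0% of them, close to the 39.5% of all tested genes called in that comparison. FOS differed by 0.99 on the log2 scale (adjusted p = 0.00173, edgeR), higher in 3 of 3 M1B26 libraries than in all MC26 libraries. JUN differed by -0.99 (adjusted p = 0.00206) and was lower in all 3 M1B26 libraries. IER3 differed by 0.42 (adjusted p = 0.0113), higher in all 3 M1B26 libraries, and lost its call without M1B26 replicate 1 (0.0502). FOSL1 differed by -0.58 (adjusted p = 0.0365), lower in all 3 M1B26 libraries, with a call lost in 5 of the 9 fits without 1 library, up to an adjusted p of 0.158. For FOS and JUN the MC26 libraries were themselves spread by 1.84-fold and 1.77-fold, in opposite order, and the part of this spread in the differences was not tested.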

How the results depend on the processing

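At an adjusted p under 0.01, 3698 of all genes were called in MC26 against CT and 3685 in M1B26 against MC26, instead of 6081 and 6215, and 4 of the 10 genes in M1B26 against CT and 2 in M1B26 against MC26, instead of 7 and 4. These fall by construction of the threshold. Leaving out 1 library gave 4 to 7 calls among the 10 genes in MC26 against CT, 5 to 8 in M1B26 against CT and 2 to 6 in M1B26 against MC26, and the lowest of the last came without M1B26 replicate 1. The direction turned for 2 uncalled differences. IER3 in MC26 against CT was -0.0021 without CT replicate 2 and up to 0.18 without CT replicate 3, and ATF3 in M1B26 against MC26 was -0.036 without M1B26 replicate 1, -0.029 without M1B26 replicate 3, -0.0014 without MC26 replicate 1 and up to 0.29 without M1B26 replicate 2. The cause was not tested. No direction turned under the 10 other settings, and the FOSL1 and JUN shares kept their direction under every setting tried, but their size moved. The FOSL1 share difference of M1B26 against CT was 6.23 points without FOSL2 in the sum instead of 17.1, and the JUN share difference of MC26 against CT was -11.1 points without JUND instead of -2.82. Leaving out 1 library gave -14.9 to -6.59 points for FOSL1 in M1B26 against MC26 and -4.44 to -1.04 for JUN in MC26 against CT. Of the fold changes of the 10 genes under those settings, 261 stayed on their side of the threshold, 25 passed it and 11 fell back. With the replicate block, 8, 7 and 4 of the 10 genes were called in the 3 comparisons, and FOS (adjusted p = 0.0494) and JUND (adjusted p = 0.0408) passed the threshold in MC26 against CT. Libraries with the same number in their titles correlated at -0.162 to 0.30 in their deviations from the line means, with 3 of 9 pairs above 0.1, and 6 of 18 comparisons of a library with another line were highest at its own number, so the numbers were not taken to pair the cultures. Depth limits FOSB and ATF3, with 11 to 112 counts per library.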
